A study of Mus musculus with 6 samples.

Results

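The genes described here are 9 mast cell genes of embryonic mouse skin: the granule proteases Cpa3, Mcpt4, Cma1, Tpsb2 and Tpsab1, the IgE receptor chains Fcer1a and Ms4a2, the histamine-forming enzyme Hdc and the growth factor receptor Kit. They were taken as every probe set that the array's annotation maps to exactly 1 of these symbols, which gave 13 of 45037 probe sets, and no probe set with several symbols included any of them. Skin RNA of 3 Tcfap2c mutant and 3 control mouse embryos, all at embryonic day 16.5, was measured on 6 one-colour Affymetrix arrays, 1 for each sample. Tcfap2c (Tfap2c in current naming) encodes the transcription factor AP-2 gamma of the surface ectoderm and epidermis. The labels name no allele, Cre driver, strain, sex or litter, and the description of the control samples also mentions the mutation, although their titles and the design place them in the control group. Since nothing says whether the samples came from separate litters, the p-values reflect only how far these samples differed.

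Mast cells are immune cells of blood-forming origin that settle in connective tissue, and skin is among their main homes. Their granules store histamine and proteases bound to heparin, and these are released when antigen cross-links IgE on the high-affinity receptor. Stem cell factor, the ligand of Kit, keeps them alive and drives their maturation, and GATA factors are known regulators of mast cell genes.

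RefSeq sequence upstream of the start site (GRCm38.p6) was at hand for 7 of the 9 genes, and 4 are shown because Mcpt4 and Fcer1a were low in the same mutant samples while Cpa3 and Cma1 varied less. Each is the 250 bases before the start site, 5' to 3', with capitals at the GATA-type motifs AGATAA or TGATAA on either strand.
Cpa3, chr3:20242182-20242431, minus strand: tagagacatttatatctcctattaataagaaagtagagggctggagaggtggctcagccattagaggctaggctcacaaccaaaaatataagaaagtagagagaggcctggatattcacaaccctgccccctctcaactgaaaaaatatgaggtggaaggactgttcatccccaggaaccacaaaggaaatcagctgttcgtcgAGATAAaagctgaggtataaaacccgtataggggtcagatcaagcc
Mcpt4, chr14:56062311-56062560, minus strand: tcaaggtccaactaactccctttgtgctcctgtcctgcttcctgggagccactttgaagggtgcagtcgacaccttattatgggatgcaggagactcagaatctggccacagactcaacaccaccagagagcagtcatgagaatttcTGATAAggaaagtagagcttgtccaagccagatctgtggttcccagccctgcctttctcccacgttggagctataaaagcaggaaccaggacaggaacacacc
Fcer1a, chr1:173227230-173227479, minus strand: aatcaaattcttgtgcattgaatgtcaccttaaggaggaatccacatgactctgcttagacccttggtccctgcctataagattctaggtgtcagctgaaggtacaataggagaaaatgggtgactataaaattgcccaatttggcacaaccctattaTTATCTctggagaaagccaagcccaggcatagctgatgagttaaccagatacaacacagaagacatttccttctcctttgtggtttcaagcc
Cma1, chr14:55944676-55944925, minus strand: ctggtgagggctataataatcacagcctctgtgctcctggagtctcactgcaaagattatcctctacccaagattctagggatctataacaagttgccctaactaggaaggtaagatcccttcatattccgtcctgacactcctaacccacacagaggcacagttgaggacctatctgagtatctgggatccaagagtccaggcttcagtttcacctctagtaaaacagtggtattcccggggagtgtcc
Cpa3 had AGATAA beginning 46 bases before its start site, and Mcpt4 had TGATAA beginning 103 bases before it. Fcer1a had a match on the opposite strand at 92 bases, and Cma1 had no match in this window. Such a match was present in 4 of the 7 promoters (Cpa3, Fcer1a, Mcpt4 and Ms4a2), and in 17.0% of all 27025 promoters over the same length. The letters TATAAA, searched on both strands, were present in 3 of the 7 (Cpa3, Fcer1a and Mcpt4) and in 13.0% of all promoters. The E-box letters CACCTG, on both strands, were present in 0 of the 7 and in 17.1% of all promoters. No GATA-type match overlapped a TATAAA match. These letter matches are descriptions and not binding sites.

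Signals are linear MAS5 intensities, with the same trimmed mean (500) on every array. Differences are mutant minus control in log2(signal + 24.48). The added 24.48, the 20th percentile of all signals, makes differences of dim probe sets too small. Tests were run with limma on the 22518 probe sets brighter than the median probe set (a mean signal near 114.5), and p was adjusted over all of them. Of the 13 probe sets 10 passed this filter, and they represent 8 of the 9 genes. Fcer1a did not pass it. Each gene is read from its probe set with the highest mean. Mutant sample 1 stood apart. It correlated with the other arrays at 0.9399 on average, where each of the others reached at least 0.9606. The summed signal of 8 uterine and decidual marker genes was 49433 in it, against 239.9 to 542.6 in the other 5 samples. Nearly all of that sum came from Prap1 (32479), Prl8a2 (14204) and Pgr (2719). The other 5 of the 8, Prl3c1, Gzmd, Gzme, Gzmf and Gzmg, were between 2.18 and 12.9 in that sample, all below the filter. The part of this in the mast cell values was not tested. Values without that sample are given beside many of those it moves, but not for Fcer1a.

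None of the 8 genes tested passed an adjusted p of 0.05 in limma in either direction, and the smallest adjusted p was 1.0. Across all probe sets 0.00444% passed. At an unadjusted p under 0.05 there was 1 lower gene of the 8, Cma1, where 1.84% of 11589 genes tested were lower at that level. For 1 of the 8, again Cma1, every mutant sample lay below every control sample, as it did for 4.47% of all genes. The difference was negative for 7 of the 8, with a median of -0.17, and for 53.5% of all genes, with a median of -0.014. With all 9 genes and no filter, 8 were negative, against 50.2% of all genes, and the median was -0.21. None of the 9 passed an adjusted p of 0.05 there, where 0.00222% of probe sets did. Without mutant sample 1, again none of the 8 passed, where 0.173% of probe sets did. Cma1 was then again the only one of them wholly lower (11.1% of all genes), and 7 of the 8 were negative (50.9% of all genes). A decrease of these genes was thus not established. In whole skin, the number of mast cells and the RNA per mast cell cannot be told apart.

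**Figure D1:**
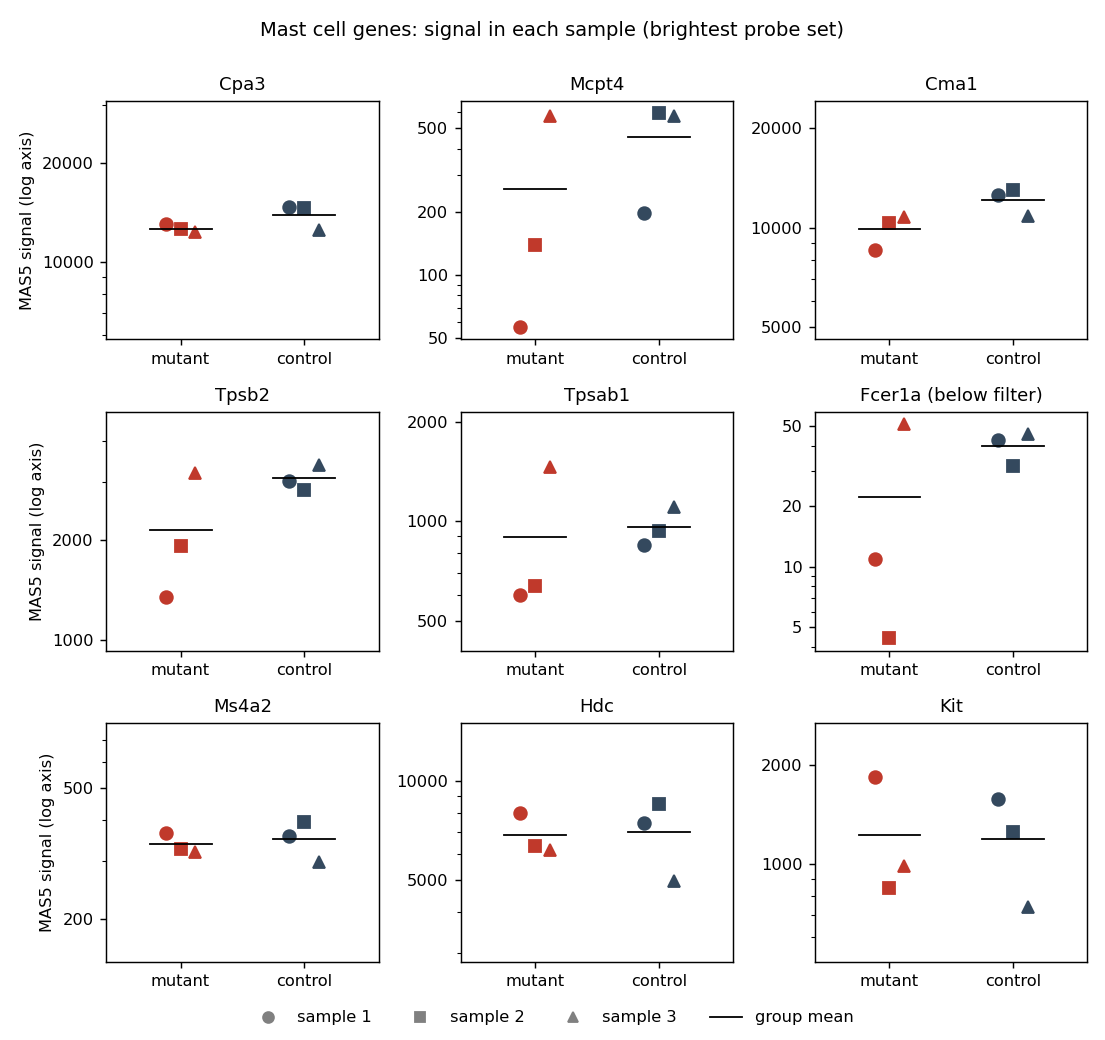
MAS5 signal (log axis, each panel with its own range) of the brightest probe set of each mast cell gene in 3 mutant (red, left) and 3 control (dark, right) samples, with lines at group means. The mutant samples are spread widely for Mcpt4, Tpsb2, Tpsab1 and Fcer1a, with mutant sample 3 among or above the control samples, and lie close together for Cpa3 and Ms4a2.

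Among the granule proteases, Cpa3, the mast cell carboxypeptidase, varied least. It had signals of 13027, 12590 and 12296 in mutant samples 1, 2 and 3, against 14639, 14598 and 12551 in control samples 1, 2 and 3. All mutant samples lay below control samples 1 and 2, and control sample 3 fell within the range of the mutant samples. Mutant signal was 0.91 times that of controls, with a 95% interval of 0.768 to 1.08 times and a log2 difference of -0.14 (SE 0.11, limma adjusted p = 1.0).

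Cma1, known in mouse as mast cell protease 5, is a chymase-family serine protease of connective tissue mast cells. Its signals were 8531, 10354 and 10789 in the mutant samples and 12553, 13046 and 10849 in the control samples. Every mutant sample lay below every control sample, but mutant sample 3 and control sample 3 were close to each other. The log2 difference was -0.30 (SE 0.13), or 0.813 times with an interval of 0.662 to 0.998 times. Its unadjusted p was 0.0481 and its limma adjusted p was 1.0. Without mutant sample 1 the difference was -0.20 (adjusted p = 0.775).

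Mcpt4, the chymase of mature connective tissue mast cells, had the most negative difference of the tested members. Its signals were 56.7, 138.6 and 573.5 in the mutant samples and 197.4, 590.1 and 574.8 in the control samples. Mutant samples 1 and 2 were below all control samples, mutant sample 3 was level with control samples 2 and 3, and control sample 1 was itself low. The log2 difference was -1.12 (SE 0.67, limma adjusted p = 1.0), with an interval of -2.64 to 0.40. It was -0.47 without mutant sample 1 and -1.91 without mutant sample 3, neither past the threshold.

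The tryptases showed the same order among the mutant samples. Tpsb2, mast cell protease 6, had 1346, 1923 and 3190 in the mutant samples and 3030, 2832 and 3373 in the control samples. Mutant samples 1 and 2 lay below all control samples, and mutant sample 3 lay among them. This gave a log2 difference of -0.60 (SE 0.27, unadjusted p = 0.0539, limma adjusted p = 1.0), or 0.661 times with an interval of 0.434 to 1.01 times. It was -0.31 without mutant sample 1, -0.92 without mutant sample 3 and -0.12 with array weights, none past the threshold. A second, dimmer Tpsb2 probe set, below the filter, had 72.2, 15.4 and 90.5 in the mutant samples and 65.9, 93.1 and 85.4 in the control samples, and there mutant sample 2 alone was low.

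Tpsab1, mast cell protease 7, is listed in RefSeq as a transcribed pseudogene on the C57BL/6J assembly, and the labels give no strain. Its signals were 598.4, 638.6 and 1459 in the mutant samples and 845.5, 934.6 and 1109 in the control samples. Mutant samples 1 and 2 were below every control sample and mutant sample 3 was above every control sample. Its log2 difference was -0.21 (SE 0.31, limma adjusted p = 1.0), 0.015 without mutant sample 1, -0.03 without mutant sample 2 and -0.61 without mutant sample 3. Tpsb2 and Tpsab1 are related genes that lie close together on chromosome 17, at 25366308 to 25368096 and 25343245 to 25345562 (GRCm38.p6), and probe sets of related genes can share signal.

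**Figure D2:**
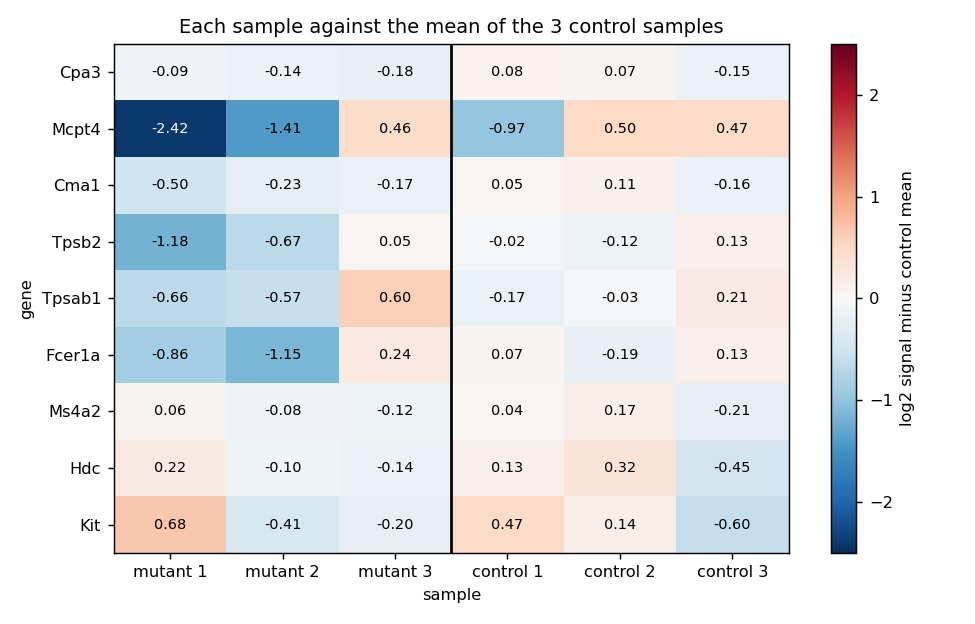
Log2(signal + 24.48) of each mast cell gene (brightest probe set, rows) in each sample (columns), minus the mean of the 3 control samples; blue is lower and red higher. Mcpt4, Tpsb2, Tpsab1 and Fcer1a are blue in mutant samples 1 and 2 and not in mutant sample 3, and Kit is red in mutant sample 1.

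Set against the control mean, all 5 protease genes were lower in mutant samples 1 and 2, and 2 of the 5, Cpa3 and Cma1, were lower in mutant sample 3. For Mcpt4 the log2 distance from the control mean was -2.42, -1.41 and 0.46 in mutant samples 1, 2 and 3. The mean over the 8 tested genes, each centred on its own mean, was -0.335, -0.301 and 0.189 in the mutant samples and 0.099, 0.294 and 0.055 in the control samples. Mutant samples 1 and 2 were below all control samples by this measure, and mutant sample 3 lay among them. Mcpt4, the gene with the widest spread, weighs most in this mean, and no mean without it was taken. In mutant sample 1, the brightest probe sets of Ms4a2, Hdc and Kit lay above the control mean, by 0.06, 0.22 and 0.68. Their second probe sets were there at 0.02, -0.29 and -0.28 from it. Of all 9 genes 6 were below the control mean in mutant sample 1, 9 in mutant sample 2 and 5 in mutant sample 3. The share of all genes below the control mean in each sample was not taken, so these counts have no background beside them.

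The IgE receptor binds antibody through its alpha chain, while its beta chain, Ms4a2, amplifies the signal. The alpha chain, Fcer1a, was dim on all arrays, with 11.0, 4.41 and 51.5 in the mutant samples and 42.8, 31.8 and 45.7 in the control samples. These signals all lie below the filter, so that they have little precision. Mutant samples 1 and 2 were below, and mutant sample 3 above, all control samples, as for Tpsab1. In the fit with no filter the log2 difference was -0.59 (SE 0.39, limma adjusted p = 1.0).

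Ms4a2 had 364.7, 327.6 and 319.2 in the mutant samples and 358.1, 394.3 and 297.4 in the control samples. The groups overlapped, and mutant samples 1 and 2, which were low for Mcpt4, both lay above control sample 3 here. The groups differed by -0.04 on the log2 scale (SE 0.17), with an interval of -0.44 to 0.35, and by -0.098 without mutant sample 1. The second Ms4a2 probe set, below the filter, gave -0.06 (SE 0.31), and there mutant sample 2 was the lowest, at 79.0. Fcer1g, the gamma chain that the receptor shares with other Fc receptors, had 477.5, 731 and 1206 in the mutant samples and 859.7, 821.5 and 812.9 in the control samples. It too was lowest in mutant samples 1 and 2 and highest in mutant sample 3, with a log2 difference of -0.14 (SE 0.28, limma adjusted p = 1.0). Without mutant sample 1 this turned to 0.17 (adjusted p = 0.903).

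Hdc, histidine decarboxylase, forms histamine. Its brightest probe set had 7959, 6353 and 6173 in the mutant samples and 7450, 8499 and 4983 in the control samples. The groups overlapped, with the highest and the lowest signal both in control samples. The log2 difference was -0.0054 (SE 0.20), or 0.996 times with an interval of 0.728 to 1.36 times, and -0.12 without mutant sample 1. Its second probe set gave -0.08 (SE 0.17), and there mutant sample 1 was the lowest, at 3700. Both are of the _s_at type, which can match more than a single gene.

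Kit, the receptor of stem cell factor, is made by mast cells and also by melanocytes and their precursors. Its brightest probe set had 1833, 848.6 and 986.8 in the mutant samples and 1578, 1250 and 739.1 in the control samples. The groups overlapped, and mutant sample 1 was the highest of all. The log2 difference was 0.02 (SE 0.33), with an interval of -0.73 to 0.78, and without mutant sample 1 it was -0.30. The second Kit probe set had 275.9, 297 and 265.9 in the mutant samples and 340.9, 381.5 and 301.6 in the control samples. Its groups did not overlap, and 4.47% of all genes, read at their brightest tested probe set, were also wholly lower. The log2 difference of this probe set was -0.26 (SE 0.17, unadjusted p = 0.161, limma adjusted p = 1.0), so the probe sets of Kit differed in sign. The 7 measured melanocyte markers, of 8 listed, summed to between 2604 and 3812 in the mutant samples and between 3574 and 3691 in the control samples. Dct and Pmel carried most of this sum. Of the 7 markers 6 had a negative difference (median -0.17), as did 53.5% of all genes. Tyrp1, a pigment enzyme, was wholly lower in the mutant samples (log2 difference -1.01, SE 0.32, unadjusted p = 0.0119, limma adjusted p = 1.0). Of all genes 4.47% were wholly lower, and 1.84% were lower at an unadjusted p under 0.05. For the other measured markers the groups overlapped. Without mutant sample 1, 6 of the 7 were again negative (median -0.18), as were 50.9% of all genes. None of the marker probe sets was at 0, and their part in the Kit values was not tested.

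**Figure D3:**
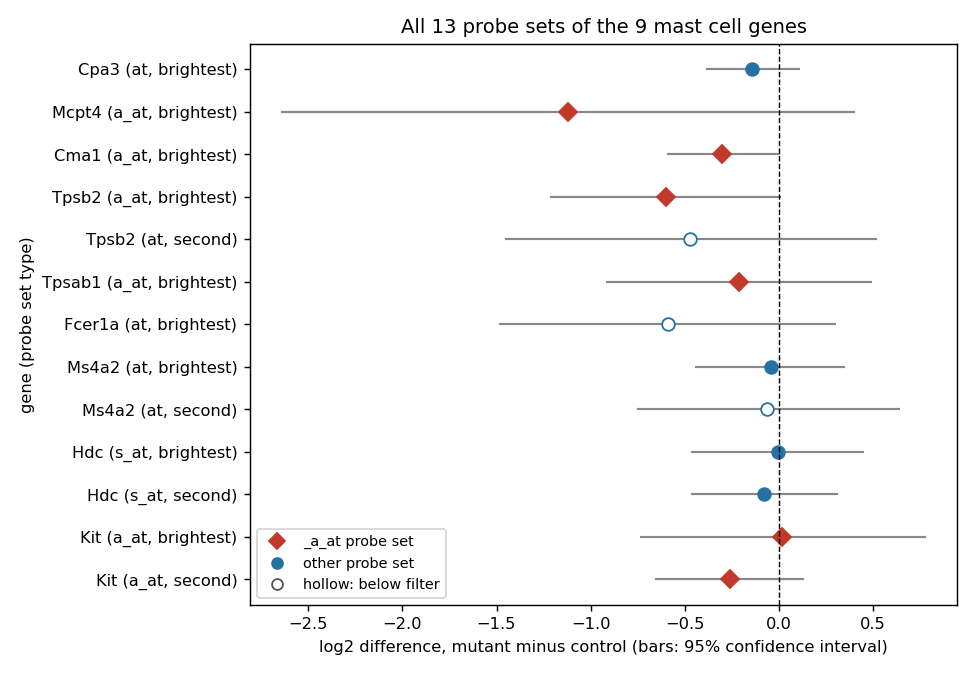
Log2 difference (mutant minus control) of all 13 probe sets of the 9 genes, with 95% confidence intervals from limma; diamonds are _a_at probe sets, circles other types and hollow symbols probe sets below the filter. All intervals but that of Cma1 include 0, and all probe sets but the brightest of Kit have a negative value.

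The probe set type decided which of these genes could be read at all. Of the 13 probe sets 6 are named _a_at, an ending that can mark several transcripts of 1 gene, and these are the only ones for Mcpt4, Cma1, Tpsab1 and Kit and the brightest for Tpsb2. Without _a_at probe sets 3 genes remained tested, Cpa3, Ms4a2 and Hdc, with differences of -0.14, -0.04 and -0.01 and a median of -0.044. All 3 were negative, as were 53.9% of all genes. None passed the threshold, which 0.00522% of probe sets passed, and none lay apart between groups, where 8.23% of 10568 genes did in either direction. Fcer1a and the second probe set of Tpsb2 remained too, both below the filter.

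Beyond these genes, 3 further lists of mast cell genes were read. Of 14 granule and mediator genes 5 were tested, 3 with a negative and 2 with a positive difference (median -0.029). Of 17 receptor and signalling genes 9 were tested, 7 negative and 2 positive (median -0.078). All 8 lineage and growth genes were tested, with 4 negative, 4 positive and a median of 0.0089. No tested gene of these lists passed the adjusted threshold or, with all 6 samples, an unadjusted p of 0.05, which 3.42% of all genes tested did in either direction. Without mutant sample 1 the granule and mediator list was still 3 negative and 2 positive (median -0.065). The receptor and signalling list was then 5 negative and 4 positive (median -0.089), and the lineage and growth list 6 negative and 2 positive (median -0.049). In that setting 1 gene, Hpgds, was lower at an unadjusted p under 0.05, as were 3.3% of all genes. Hpgds was also the only one of the 3 lists wholly lower (11.1% of all genes), and 2 were wholly higher, Ndst2 and Lat2 (11.4% of all genes).

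Among the granule and mediator genes, Srgn, the serglycin core protein that carries granule heparin and is made by many blood cells, had 10665, 5498 and 5526 in the mutant samples and 5627, 6056 and 4114 in the control samples. The high value was in mutant sample 1. The summed signal of 9 leukocyte markers was also highest there, at 15797, against 8486 to 11038 in the other 5 samples. Csf1r carried the largest part of it, at 8353, against 3951 to 4899 in the other 5 samples. Each of the 9 markers but Coro1a and Tyrobp was highest in mutant sample 1. Srgn differed by 0.40 on the log2 scale, or by 0.08 once mutant sample 1 was left out. Hpgds, the prostaglandin D synthase of mast cells and other blood cells, differed by -0.33 (SE 0.25), or by -0.60 without mutant sample 1 (limma adjusted p = 0.496), and Slc18a2, the vesicular monoamine transporter that loads histamine, by -0.16 (SE 0.19). Alox5ap, the activating protein of leukotriene synthesis, differed by -0.03.

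Among receptor and signalling genes, Csf2rb, the beta chain of the interleukin-3 receptor, differed by 0.26 (SE 0.22), or 0.15 without mutant sample 1, and Btk, a kinase below the IgE receptor, by -0.29 (SE 0.27). Fyn, a kinase of the same pathway, differed by -0.11, and so did the phospholipase Plcg2, which was at -0.20 without mutant sample 1. Of the lineage and growth genes, Kitl, the stem cell factor itself, had 6579, 4863 and 5525 in the mutant samples and 4975, 5410 and 4349 in the control samples. The groups overlapped, with a log2 difference of 0.20 (SE 0.15), and of 0.08 without mutant sample 1. Tal1 differed by -0.24. Mitf differed by 0.20 with all samples and by -0.12 without mutant sample 1, and Stat5b by 0.15 and 0.30. Gata2, a transcription factor needed by mast cells, differed by -0.11 (SE 0.18), or by -0.04 without mutant sample 1.

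The only measured gene of these lists with groups apart was Mrgprb1, a Mas-related receptor of the family that holds the mast cell receptor Mrgprb2. Its signals were 33.2, 10.9 and 38.2 in the mutant samples and 119.5, 120.6 and 130.2 in the control samples, so it was low in all mutant samples, mutant sample 3 included. Its mean lay below the filter, so it was read only in the fit with no filter, and it is named because it stands apart, after its values were seen. There the log2 difference was -1.55 (SE 0.34), with an unadjusted p of 0.00134 and a limma adjusted p of 0.783. In that fit 4.17% of 18193 genes lay wholly lower in the mutant samples, and 50.2% of all genes were negative. The granule and mediator genes were there 5 negative and 8 positive (median 0.23, values from -0.61 to 0.56). The receptor and signalling genes were 8 negative and 5 positive (median -0.052, values from -1.55 to 0.84). Basophils share several mast cell genes, and the 2 measured basophil markers, Mcpt8 and Cd200r3 of 3 listed, were both below the filter. Their summed signal was 71.5 to 194.6 in the mutant samples and 84.6 to 156.3 in the control samples.

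**Figure D4:**
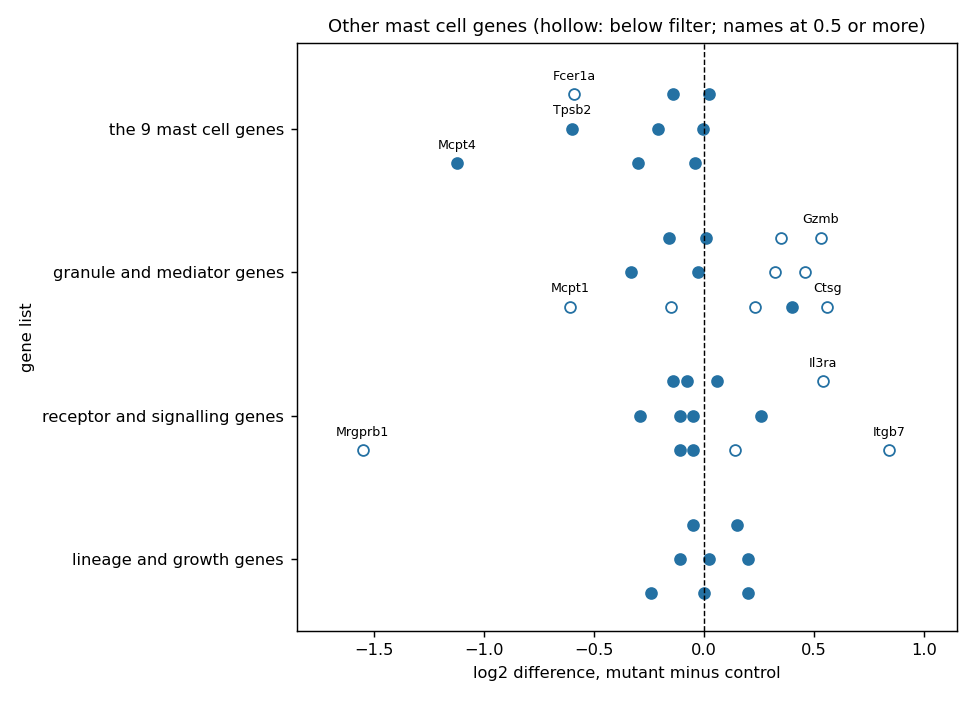
Log2 difference (mutant minus control) of the 9 mast cell genes and of the measured genes of 3 further lists, 1 point per gene at its brightest probe set; hollow points lie below the filter. Values of the tested genes in the 3 further lists lie between -0.33 and 0.40, and Mrgprb1 stands at -1.55 below the filter.

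The genes whose pattern over the 6 samples was most like the mean of the 8 tested mast cell genes were sought among 3279 genes with an SD of at least 0.3 on the log2 scale. Mcpt4 weighs most in that mean. The 8 highest Pearson correlations belonged to Wbp2nl (0.952), Rgs13 (0.94), Nuf2 (0.933), Tarbp2 (0.932), Serpinb2 (0.927), Gpr17 (0.916), Trim10 (0.909) and Cdh6 (0.908), and 1% of the candidates lay above 0.826. Rgs13, a regulator of G protein signalling known from mast cells and germinal centre B cells, had 84.8, 76.2 and 133.4 in the mutant samples and 149.4, 144.8 and 130.5 in the control samples. Mutant samples 1 and 2 were the lowest and mutant sample 3 lay just above control sample 3. Of the listed mast cell genes among the candidates, Fcer1g was the most alike, with a correlation of 0.754. The others lay between -0.608 and 0.455, with Csf2rb (-0.608), Mitf (-0.536) and Srgn (-0.506) negative. With 6 samples on the same arrays, these correlations are a description only.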

How the data were processed

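Skin RNA of 3 Tcfap2c mutant and 3 control embryos was measured on 6 arrays, grouped by title. The authors' deposited values are MAS5 intensity signals, with MAS5 named without a version in the submitters' processing notes; the 2% trimmed mean was 500 in every column, so arrays had been scaled to each other. They were used without further normalization, after removal of 64 Affymetrix control probe sets. Genes were named from GEO's platform annotation: 34945 probe sets had 1 symbol, 932 several and 9160 none.

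log2(signal + 24.48) was fitted with limma 3.58.1 in R 4.3.3 (lmFit, eBayes with trend, two-sided, Benjamini-Hochberg), which was tested on simulated data. The number of arrays limits the precision: exact permutation of 3 against 3 cannot go below 0.1. Members, lists and settings were chosen with earlier results of these data known. All 9 members are named, plus up to 4 genes per further list by smallest p and the 8 genes most like the members; Fcer1g, Gata2, Mrgprb1, Ndst2, Lat2, Tyrp1 and the genes of the array checks fall outside this rule. Of the listed genes, Lyn, Cd63, Il1rl1, Mrgprb2, Mcpt9, Prss34 and Slc24a5 were not analysed here. Deviations of same-numbered samples from their group means correlated at -0.0525, -0.0735 and 0.115. Samples with different numbers were not compared, so this does not exclude a pairing. Alternatives were other pseudocounts, filters, normalizations and variance models, array weights, a replicate block, probe set types and leaving out each sample.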

Additional observations from a re-analysis of the deposited data

How the results depend on the processing

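No mast cell gene passed the threshold under any of the 17 other settings that gave a test. Averaging the probe sets of each gene gave values only. The median difference of the tested genes stayed negative in all 18, between -0.25 and -0.044. With 1 sample left out it was -0.25 (without control sample 3) to -0.082 (without mutant sample 2), with all 6 samples -0.17. Cma1, Cpa3 and Tpsb2 were negative wherever they were tested, at -0.38 to -0.20, -0.21 to -0.099 and -0.92 to -0.12. The other sign was taken by 12 of 133 gene values, none past the threshold. With array weights the difference was 0.019 for Mcpt4, 0.36 for Tpsab1 and -0.19 for Kit. That setting gave mutant sample 3 a weight of 3.134, against 0.2565 and 0.5596 for mutant samples 1 and 2. Kit was -0.12 as the mean of its probe sets, -0.30 without mutant sample 1 and -0.28 without control sample 3, and between -0.30 and 0.26 with 1 sample left out. Tpsab1 was 0.015 without mutant sample 1, within -0.61 to 0.015 with 1 sample left out, and Ms4a2 was 0.041 without control sample 2, within -0.15 to 0.041. Hdc was 0.042 and 0.062 without mutant samples 2 and 3, and 0.059 and 0.15 without control samples 1 and 2, within -0.23 to 0.15. Over all probe sets the count past the threshold was 1 with all samples, 106 with array weights and 8 with the replicate block. It was 1 to 39 with 1 sample left out, 39 without mutant sample 1 and 3 without control sample 2. The cause was not tested for any of these. The block changed no call on a mast cell gene. Signals near or below 114.5, as for Fcer1a and Mrgprb1, limit what can be read of dim genes.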

Other observations

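The order of the samples for Kit, Hdc, Cpa3 and Ms4a2, chosen after their values were seen, differed from that for Mcpt4 and the tryptases. Xist, transcribed from the inactive X chromosome, had signals of 6732, 67.9 and 115.8 in the mutant samples and 5520, 6313 and 119.9 in the control samples. Eif2s3y, a gene of the Y chromosome, was low where Xist was high. It had 4.86, 1915 and 1552 in the mutant samples and 40.6, 9.36 and 1620 in the control samples. The values without mutant sample 1 thus set mutant samples with low Xist only against control samples of which 1 and 2 had high Xist. For 4 of the 9 mast cell genes, Cpa3, Ms4a2, Hdc and Kit, the brightest probe set had its 3 highest signals in those same samples with high Xist, mutant sample 1 and control samples 1 and 2. The second probe sets of Ms4a2, Hdc and Kit did not. For Ms4a2 control sample 3 was highest, at 138.4, for Kit mutant sample 1 was lower than control sample 3 (275.9 and 301.6), and for Hdc mutant sample 2 was highest, at 5175. No test was made of this order, and sex is not given in the labels. The share of all genes with this order was not taken. The count of 4 therefore cannot be read as a trait of mast cell genes.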
